A study of Mus musculus with 82 samples.

Results

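The genes described here encode the proteins of the cytosolic ribosome. They were taken by symbol: Rpl, Rplp or Rps followed by a number and optionally a letter, x or l, without the Rps6k kinases and without pseudogenes. Of 12393 genes with a probe set of their own on the array, 44 met this rule, 24 of the large and 20 of the small ribosomal subunit. Where several probe sets read a gene, the one with the highest mean across the 82 arrays was used. A gene was tested where it lay above its array's median in at least 3 specimen averages, which kept 8592 genes and 41 of the 44. The genes left untested were Rpl3l, Rpl39l and Rps27. A further 102 probe sets carry a symbol that meets the rule beside other symbols, among them those of Rpl3, Rpl5, Rps12 and Rplp1. They cannot be given to 1 gene and were kept apart.

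Each ribosome holds 1 copy of nearly all of these proteins, so their production is normally kept in balance. Their mRNAs begin with a run of pyrimidines, the 5′ terminal oligopyrimidine tract, through which the mTOR pathway controls their translation. Myc, the transcription factor whose gene was inserted in these mice, is a known activator of ribosomal protein genes and of ribosome assembly. Plasma cells, which secrete antibody in bulk, depend on a high rate of protein synthesis.

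All mice were of strain BALB/c.iMycEμ, in which Myc is inserted into the locus of the immunoglobulin heavy chain, and were at least 8 weeks old when 0.5 ml pristane was given i.p. There was no group without the insertion or without pristane. Plasma cells, which the labels call nascent plasma cell tumor cells, were captured by laser from stained frozen sections of the oil granulomata that form in the peritoneum. Undissected sections of whole granuloma were their reference. The series holds 2 independent cohorts. Study 2 has 30 arrays of captured cells and 15 of whole granuloma, from 3 specimens a tissue type on each of days 7, 17, 33, 49 and 105. Study 1 has 25 arrays of captured cells from days 7, 17, 33, 46 and 104, with 4, 4, 3, 3 and 1 specimens, and 12 arrays of whole granuloma from days 7, 17, 33 and 104, with 2, 2, 3 and 1 specimens. Arrays whose titles share a day and a code were taken as 1 specimen, and those of 1 specimen and tissue type were averaged first, which gave 53 specimen averages. In study 1, a captured array of day 7 with the code 003 was kept apart from code 3. A captured array of day 33 without a code was taken as a specimen of its own. RNA was amplified in 2 rounds before hybridization. The labels do not explain the codes or say which mouse gave a specimen, so the p-values measure the spread between these specimens, and a pair is a captured and a whole average of the same day and code.

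Of the captured arrays of study 2, 2 had a median correlation under 0.9 with the others. An array of day 49 lay far off at 0.258, and an array of day 7 lay at 0.867, while the others reached at least 0.959. The array of day 49 is called the array that stands apart here. The median of the ribosomal protein genes on it was 6.30, against 12.73 on the second array of the same specimen. Main results are therefore given with all arrays and without this array, a choice made after the data were seen. A further difference between the tissues lay in RNA quality, read as the 3′ minus 5′ log2 signal of control probe sets. It averaged 4.27 ± 0.58 in captured cells of study 2 (SD, 29 arrays, without the array that stands apart) and 1.61 ± 0.13 in whole granuloma (15 arrays). The values of study 1 were 4.49 ± 0.68 in captured cells and 3.19 ± 0.36 in whole granuloma. The labelled cell type was checked on markers. Of 9 plasma cell markers tested, 6 were higher in captured cells of study 2 and 4 in study 1, and none was lower with all arrays. Leaving out the array that stands apart gave 7 higher and 1 lower in study 2, and 5 and 0 in study 1. All 6 adipocyte, all 7 smooth muscle and all 4 mesothelium markers were lower in captured cells in both studies, and 6 and 8 of 8 macrophage markers were lower in study 2 and study 1, with 1 higher in study 2. The T and NK cell marker Zap70 was higher in study 2 and study 1, by 0.73 and 1.02, and Cd3e in study 1, by 0.38. Of the neutrophil markers in study 2, S100a9 was higher, by 1.12, and Ngp and Lcn2 were lower, by -1.83 and -1.70 (all arrays).

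The sequences around the transcription start of 8 genes that the results turn on are shown first, for the pyrimidine tract that this gene family is known for. They are RefSeq windows on GRCm38.p6, all on the plus strand, of 15 bases before the first listed start and 15 bases from it on. Capitals mark every run of at least 6 bases made of C and T alone. A marked run can lie before or after the listed start and need not be the tract itself. Rps27l, Rpl27a, Rpl12 and Rpl14 were among the genes that were higher in captured cells. Rps9, Rps19, Rplp0 and Rps2 were lower in study 2 on quantile-normalized values.
Rps27l, chr9:66946071-66946100: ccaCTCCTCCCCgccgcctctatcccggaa
Rpl27a, chr7:109519180-109519209: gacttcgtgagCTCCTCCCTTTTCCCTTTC
Rpl12, chr2:32961697-32961726: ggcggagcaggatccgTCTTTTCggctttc
Rpl14, chr9:120571502-120571531: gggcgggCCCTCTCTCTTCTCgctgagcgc
Rps9, chr7:3704026-3704055: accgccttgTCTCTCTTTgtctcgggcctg
Rps19, chr7:24884577-24884606: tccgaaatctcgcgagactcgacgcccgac
Rplp0, chr5:115559452-115559481: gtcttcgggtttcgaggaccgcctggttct
Rps2, chr17:24720048-24720077: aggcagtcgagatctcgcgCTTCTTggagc

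Such a run was present in the 30-base window of 24 of the 38 genes that matched the RefSeq table, or 63.2%, against 29.1% of all 27025 listed promoters. Of the 8 genes shown, the windows of Rps19 and Rplp0 hold none, and the listed start need not be the base at which the mRNA begins. The run of Rps27l ends before the listed start, and that of Rps2 begins after it. A C at the listed start followed by at least 4 pyrimidines was found in 8 of the 38 genes (21.1%), against 2.49% of all promoters. Of the 8 genes shown, only Rpl14 had it. The word CCGGAAG, searched on both strands of 300 bases around the start, was present in 50.0% of the 38 and in 9.12% of all promoters. CACGTG, the E-box that Myc and Max bind, was present in 3 of the 38 (7.89%) and in 7.24% of all promoters. TATAAA at 25 to 35 bases before the start was found in 0 of the 38, against 1.96% of all promoters. A match is a word in a window and says nothing of binding.

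On their chosen probe sets, the 41 tested ribosomal protein genes had a median among the brightest of the array in every group. Each is read by its brightest probe set over these same arrays, and the dim untested genes are left out. They are ranked below against all probe sets, which were not chosen in this way. The choice can raise their ranks. The median of the 41 tested genes on an array lay between 12.40 and 13.27 on the log2 scale in captured cells of study 2 without the array that stands apart, and between 13.21 and 13.82 in whole granuloma. Captured arrays of study 1 ranged over 11.61 to 12.64 and whole arrays over 11.50 to 12.49. In study 2 the captured arrays thus sat mostly below the whole arrays on deposited values, and in study 1 the tissues overlapped. The array medians of all probe sets were lower in captured cells in both studies. They were 5.31 to 5.43 in captured cells and 7.11 to 7.33 in whole granuloma in study 2, and 4.97 to 5.11 and 5.73 to 5.82 in study 1. Ranked within its own array, the genes' median stood at percentile 99.2 to 99.5 in captured cells of study 2 (71.0 on the array that stands apart), at 99.0 to 99.5 in its whole granuloma, at 98.9 to 99.5 in captured cells of study 1 and at 98.4 to 99.4 in its whole granuloma.

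**Figure D1:**
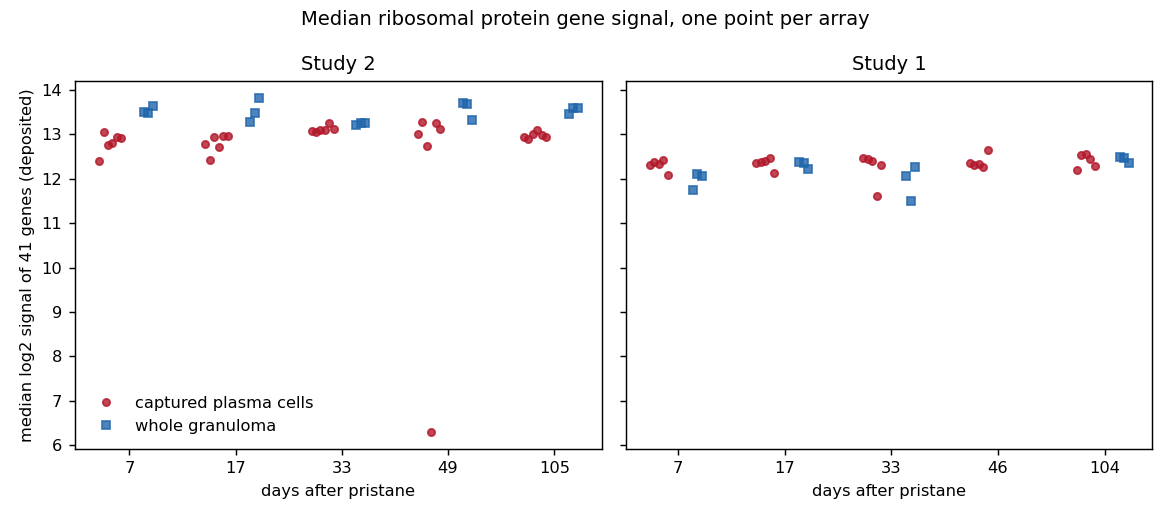
Median deposited log2 signal of the 41 tested ribosomal protein genes on each array, by day after pristane and study, with captured plasma cells as red circles and whole granuloma as blue squares. Captured arrays of study 2 lie mostly below the whole arrays, and a single day 49 array lies at 6.30.

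Signals of different probe sets depend on the probes and are not amounts of mRNA, so the order of the genes is only that of their signals. Of the 44 genes, 30 averaged above 12 and 10 below 10 on the log2 scale of the deposited values. The brightest were Rpl41 at 13.85, Rps18 at 13.68, Rps7 at 13.59, Rps28 at 13.45 and Rpl13a at 13.40. The dimmest were Rpl39l at 3.77, Rpl3l at 4.06, Rps4l at 4.28, Rps27 at 5.07 and Rpl39 at 6.09. Rpl39l and Rpl3l are paralogs of the general genes Rpl39 and Rpl3, known mainly from testis and from striated muscle. Rps4l lay at a median percentile of 21.4 in captured cells and 34.3 in whole granuloma of study 2, and of 23.9 and 30.6 in study 1. It is thus a dim gene in all groups, and its differences concern signals below the array median in most specimens. It entered the test only through specimens of whole granuloma of study 2 that lay above their array median.

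The first comparison asked which ribosomal protein genes differed between captured plasma cells and whole granuloma. On quantile-normalized values of study 2, with specimen as a random block in limma over all 8592 genes, 14 of 41 were higher and 8 were lower in captured cells at a Benjamini-Hochberg adjusted p under 0.05. Of all genes tested, 34.4% were higher and 35.4% lower. Without the array that stands apart, 27 of 41 were higher and 9 lower, against 38.6% and 35.9% of all genes. The median log2 difference of the 41, captured minus whole, was 0.07 with all arrays and 0.28 without that array, against -0.02 and 0.02 for all genes. Among large-subunit genes 9 of 22 were higher and 3 lower, and among small-subunit genes 5 of 19 were higher and 5 lower. Without that array these counts were 15 and 3, and 12 and 6. In study 1, 19 of 41 were higher and 1 was lower, against 31.5% and 29% of all genes, with a median of 0.33 against 0.06, and without the array that stands apart 22 were higher and 5 lower, against 35.9% and 31.7%. There 12 of 22 large-subunit genes were higher and 0 lower, and 7 of 19 small-subunit genes were higher and 1 lower, and without that array 13 and 2, and 9 and 3. The share of these genes that was higher in study 2 was close to the background with all arrays and above it without the array that stands apart.

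**Figure D2:**
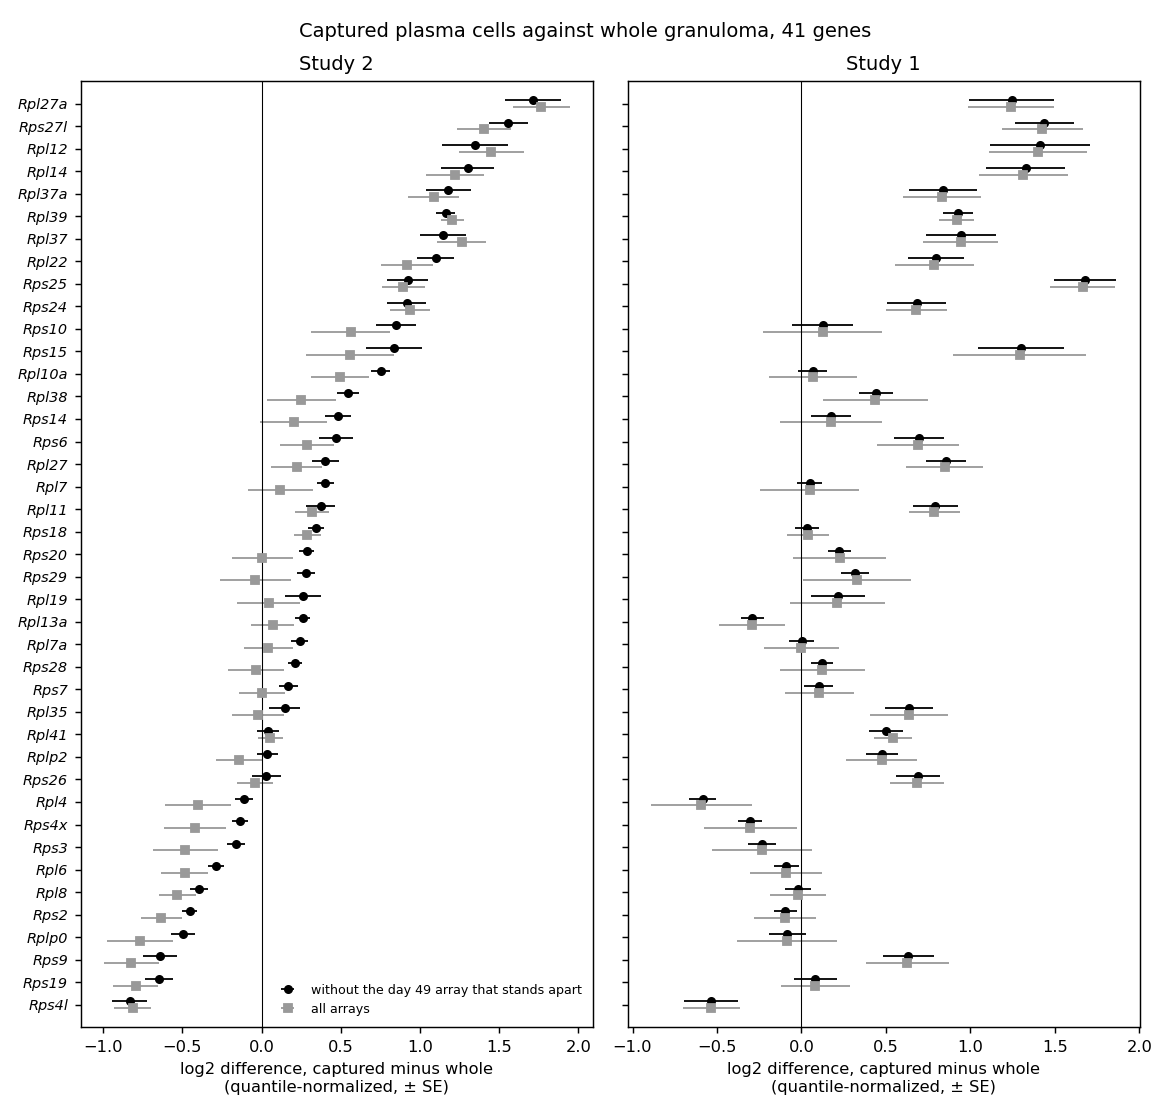
Log2 difference of each of the 41 genes, captured plasma cells minus whole granuloma on quantile-normalized values, with its standard error, in study 2 and study 1. Black circles leave out the day 49 array that stands apart and grey squares use all arrays; Rpl27a, Rps27l, Rpl12 and Rpl14 lie at or above 1.22 in study 2 and Rps4l lies below 0 in both studies.

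The genes that were higher are described first, from the large subunit. Rpl27a, a large-subunit protein, had a lowest, median and highest quantile-normalized log2 signal of 8.32, 8.73 and 10.33 over 15 captured specimens of study 2, against 5.92, 7.23 and 8.05 over 15 whole specimens (values without the array that stands apart). The groups did not overlap, and all 15 pairs showed the direction. Its difference was 1.72 ± 0.18 (SE, limma adjusted p = 3.3e-11) and 1.77 with all arrays. Study 1 gave 8.41, 9.45 and 10.76 in 15 captured specimens and 7.69, 8.20 and 8.84 in 8 whole specimens, a difference of 1.24 ± 0.26 (limma adjusted p = 6.76e-05), with overlap. Here and below, ranges and overlap of captured cells in study 1 include day 46. That day has no whole granuloma and does not enter the difference.

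Rpl12, which sits at the base of the ribosomal stalk, had 5.96, 7.08 and 8.30 in captured cells of study 2 and 4.56, 5.53 and 7.58 in whole granuloma. The groups overlapped and 13 of 15 pairs were higher, with a difference of 1.35 ± 0.21 (limma adjusted p = 3.18e-07) and 1.45 with all arrays. In study 1 its captured specimens, at 8.49 to 9.86, all lay above the whole specimens, at 7.40 to 8.47, by 1.40 ± 0.29 on average. Rpl14 differed by 1.30 ± 0.17 in study 2 and was higher in 14 of 15 pairs, and by 1.31 ± 0.26 in study 1, where 5 of 5 pairs were higher. Rpl37 differed by 1.15 ± 0.15 in study 2 (1.26 with all arrays) and by 0.94 ± 0.22 in study 1.

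Rpl39, which lines the tunnel through which the new peptide leaves, varied little between specimens. Its captured specimens of study 2 lay at 6.42, 6.53 and 6.80 and its whole specimens at 5.08, 5.44 and 5.95. In study 1 they lay at 6.03, 6.20 and 6.50 in captured cells and at 5.19, 5.36 and 5.56 in whole granuloma. The groups did not overlap in either study, and the difference was 1.16 ± 0.06 in study 2 (limma adjusted p = 2.12e-19) and 0.92 ± 0.10 in study 1 (limma adjusted p = 1.58e-09).

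Rps27l, a paralog of the small-subunit gene Rps27 that is known as a target of p53, was among the largest increases in both studies. In study 2 it had 11.82, 12.27 and 12.53 in captured specimens and 9.84, 10.73 and 11.63 in whole specimens. Study 1 showed 11.58, 12.21 and 12.34 in captured specimens and 9.84, 10.71 and 11.19 in whole specimens. The groups did not overlap in study 1, nor in study 2 without the array that stands apart. The difference was 1.56 ± 0.12 in study 2 (limma adjusted p = 2.29e-14, 1.40 with all arrays) and 1.43 ± 0.24 in study 1 (limma adjusted p = 3.54e-06). Both other probe sets of Rps27l were also higher, at 0.37 and 1.13 in study 2 and at 1.29 and 1.25 in study 1. The probe set of Rps27 itself was too dim to be tested, at a mean of 5.07.

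Rps25, a small-subunit protein used in initiation at some viral internal entry sites, showed the largest increase of study 1, at 1.67 ± 0.19 (limma adjusted p = 2.22e-09, 5 of 5 pairs). In study 2 it differed by 0.89 ± 0.13. Rps15, in the head of the small subunit, differed by 1.29 ± 0.39 in study 1 (limma adjusted p = 0.00475). In study 2 its difference was 0.56 ± 0.28 with all arrays (limma adjusted p = 0.0714) and 0.84 ± 0.18 without the array that stands apart (limma adjusted p = 6.4e-05), so that array decides the call.

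The groups of captured and whole specimens did not overlap for 2 genes that were higher in study 2, Rpl27a and Rpl39, and for 6 in study 1, Rpl12, Rpl22, Rpl27, Rpl38, Rpl39 and Rps27l. Of all genes 2.37% and 10.3% were of that kind. Without the array that stands apart, Rpl10a and Rps27l joined in study 2, against 4.38% of all genes. In the other direction only Rps2 did not overlap in study 2, against 2.58% of all genes with all arrays and 3.13% without that array. In study 1 there was no such gene, against 9.29% of all genes.

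Of the 8 genes that were lower in captured cells of study 2, 6 averaged above 12, and 7 of 9 did without the array that stands apart. Of the 41 genes tested, 30 averaged above 12, a share close to these. Rps9, near the channel by which mRNA enters the small subunit, had 10.51, 11.73 and 12.17 in captured specimens and 11.80, 12.14 and 13.00 in whole specimens. All 15 pairs were lower, by 0.64 on average in log2 without the array that stands apart (difference -0.64 ± 0.11, limma adjusted p = 1.12e-06, and -0.82 with all arrays). In study 1 Rps9 went the other way, at 0.63 ± 0.25 (limma adjusted p = 0.0263, higher in 5 of 5 pairs). Rps2, also at the mRNA entry, had 13.10, 13.22 and 13.33 in captured specimens and 13.38, 13.69 and 13.78 in whole specimens of study 2. The 2 ranges did not meet, and the difference was -0.45 ± 0.05 (-0.63 with all arrays). In study 1 Rps2 differed by -0.10 ± 0.18 (limma adjusted p = 0.665).

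Rps19, the gene most often mutated in human Diamond-Blackfan anaemia, was lower in 14 of 15 pairs of study 2, by -0.65 ± 0.09 (-0.80 with all arrays). In study 1 its difference was 0.08 ± 0.20 (limma adjusted p = 0.74). The stalk proteins, which recruit the elongation factors, did not move alike. Rplp0 had 11.88, 12.97 and 13.26 in captured specimens and 12.95, 13.31 and 13.49 in whole specimens of study 2, a difference of -0.50 ± 0.08 (-0.77 with all arrays). Its difference in study 1 was -0.08 ± 0.30 (limma adjusted p = 0.819). Rplp2 differed by 0.04 ± 0.07 in study 2 (-0.14 with all arrays, limma adjusted p = 0.401) and by 0.47 ± 0.21 in study 1 (limma adjusted p = 0.0479). The direct contrast of Rplp0 with Rplp2 was not tested.

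Rps4l, whose symbol names it as like Rps4, was lower in both studies. It was tested only because some whole specimens of study 2 lay above their array median. Its lower call in study 2 uses those same values and is no independent support. It had 3.34, 3.93 and 4.99 in captured specimens and 3.80, 4.56 and 6.51 in whole specimens of study 2, and was lower in 15 of 15 pairs. The difference was -0.83 ± 0.11 (limma adjusted p = 2e-08, -0.82 with all arrays). The difference in study 1 was -0.53 ± 0.17 (limma adjusted p = 0.00663, lower in 5 of 5 pairs). Its bright relative Rps4x, the general S4 gene, differed by -0.14 ± 0.05 in study 2 and -0.30 ± 0.07 in study 1 without the array that stands apart, and with all arrays by -0.42 (limma adjusted p = 0.0505) and -0.30 (limma adjusted p = 0.344).

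**Figure D3:**
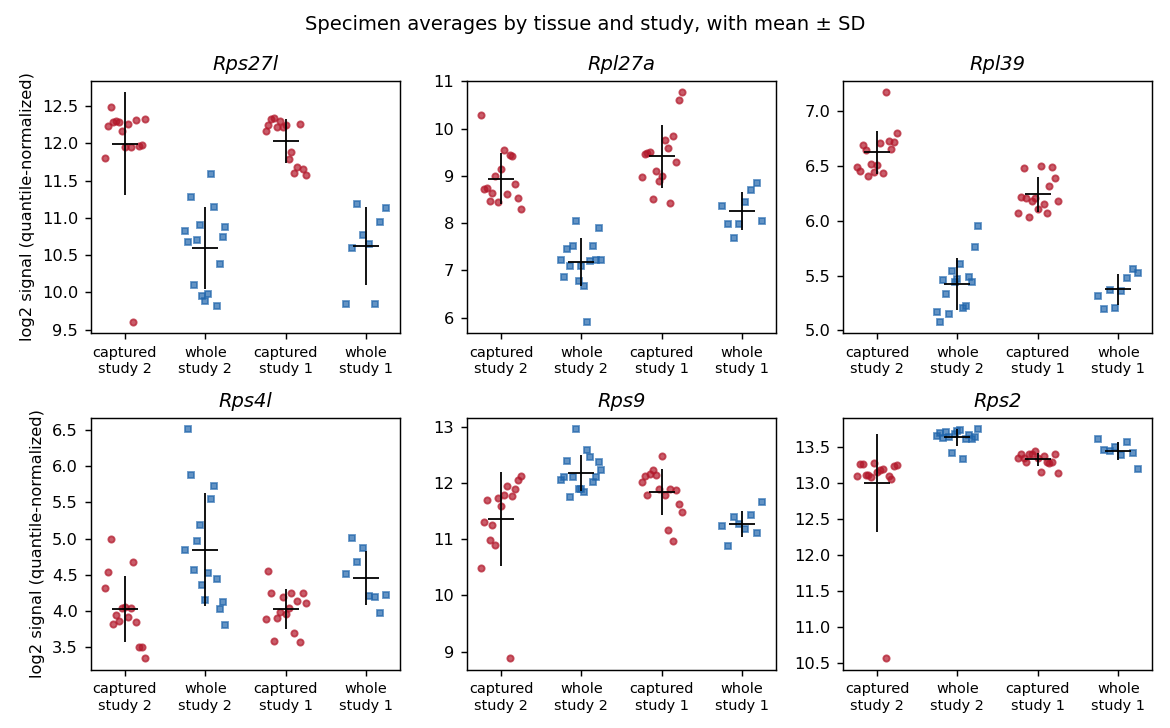
Quantile-normalized log2 signal of 6 ribosomal protein genes in each specimen, with captured plasma cells in red left of whole granuloma in blue for study 2 and then study 1, and the mean with its SD as black bars. The lowest captured point of Rps27l, Rps9 and Rps2 in study 2 is the specimen that holds the array that stands apart, and Rpl39 separates the tissues in both studies.

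Across both studies, 11 genes were higher in captured cells in each: Rpl11, Rpl12, Rpl14, Rpl22, Rpl27a, Rpl37, Rpl37a, Rpl39, Rps24, Rps25 and Rps27l. Of all genes 18.5% were higher in both. Without the array that stands apart there were 17, the 11 together with Rpl27, Rpl38, Rps6, Rps15, Rps20 and Rps29, against 22% of all genes. Rps4l was the only gene that was lower in both with all arrays, against 18% of all genes, and Rps3 and Rps4x joined it without that array, against 19.1%. Rps4l entered the test only through its high values in whole granuloma of study 2. Rps9 was called in opposite directions, as were 7.9% of all genes. Rpl13a joined it without that array, against 10.3%. The size of the difference was also read by signal level, with no test between the classes. In study 2 the 30 genes averaging above 12 had a median difference of 0.02 with 6 higher and 6 lower, and the 11 at or below 12 had a median of 1.20 with 8 higher and 2 lower. Without that array the medians were 0.25, with 18 higher and 7 lower, and 1.15, with 9 higher and 2 lower. Median-centred with all arrays, the medians of study 2 were 1.31 for the bright and 1.45 for the dim genes. Only without that array did the order turn, at 1.54 and 1.41. In study 1 the quantile-normalized medians were 0.12 and 0.94 and the median-centred ones 0.97 and 1.29.

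The direction depended on how the arrays were scaled. On deposited values of study 2, 0 of 41 genes were higher and 29 lower in captured cells, against 0.512% and 96.3% of all genes, and at an unadjusted p under 0.05 limma also counted 0 higher. The median difference was -0.55 for the 41 and -1.68 for all genes. With each array centred on its median, 38 were higher and 1 lower, against 45.7% and 27.1%, with a median of 1.33 against 0.19. In study 1, 14 were higher and 1 lower on deposited values, against 7.67% and 60.2% of all genes, and 35 higher and 0 lower when median-centred, against 36.2% and 26.8%, with 0 lower at an unadjusted p under 0.05 in limma. Only Rps4l was called lower under all 3 scalings in study 2. Rps27l was the only gene called higher under all 3 in both studies without the array that stands apart, and with all arrays there was none. On deposited values its difference was 0.47 in study 2 (limma adjusted p = 0.00026) without that array and 0.29 (limma adjusted p = 0.139) with it. Rpl10a, Rpl22, Rpl27a, Rpl37a, Rps14 and Rps27l kept a positive difference under all 3 scalings in both studies without that array. Rps9, Rps19, Rplp0 and Rps2, lower in study 2 on quantile-normalized values, had differences of 0.16, 0.35, 0.58 and 0.74 when median-centred. Rpl12, Rpl14 and Rpl37 were positive on quantile-normalized values and -0.43, -0.37 and -0.33 on deposited values. Rpl39 and Rps25 turned as well. Their deposited means were 6.30 and 9.85 in captured cells of study 2 and 6.97 and 10.45 in whole granuloma. With all arrays, only Rpl27a, Rpl37a and Rps27l were positive under all 3 scalings in study 2.

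**Figure D4:**
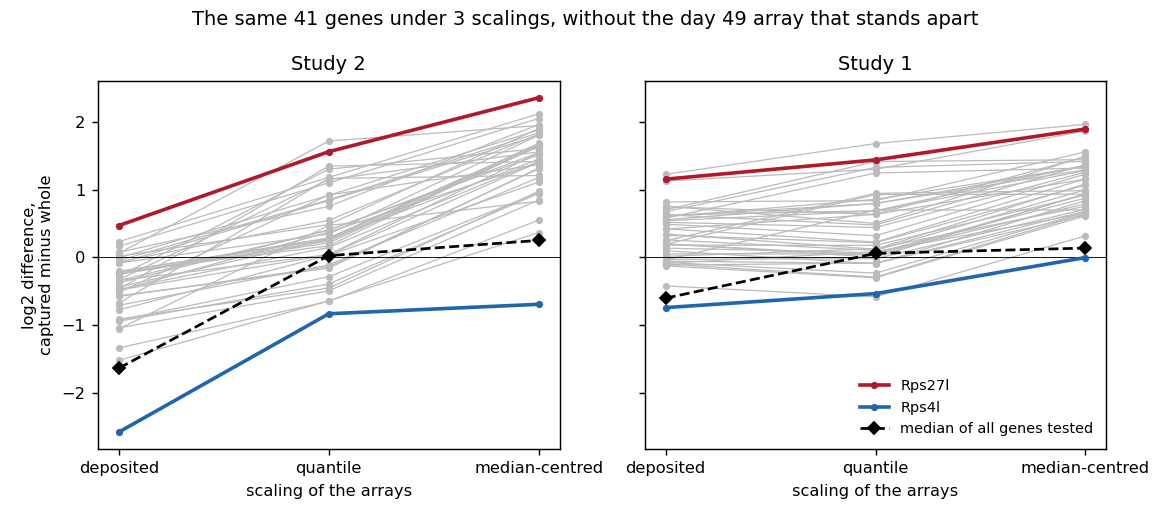
Log2 difference, captured plasma cells minus whole granuloma, of the 41 genes on deposited, quantile-normalized and median-centred values in study 2 and study 1, without the day 49 array that stands apart. Rps27l (red) stays above 0 throughout, Rps4l (blue) stays below 0 in study 2, and the black dashed line is the median of all 8592 genes.

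RNA quality moved with tissue type, and its part in these differences was tested only through a covariate. With the 3′ minus 5′ difference as a covariate and all arrays, 5 genes were higher and 23 lower in study 2, against 13.8% and 26.4% of all genes, and 9 higher and 13 lower in study 1, against 20.2% and 28.1%. In that fit the array that stands apart had a value of 0.46, against 3.10 to 5.31 on the other captured arrays of study 2. These counts cannot be told apart from that array's part in the slope. With the covariate and without the array that stands apart, 7 genes were higher and 0 lower in study 2, against 9.68% and 7.75% of all genes, and limma counted 12 and 2 at an unadjusted p under 0.05. In study 1 this second fit called 19 higher and 2 lower, against 23.5% and 21.3%. Without that array the covariate did not overlap between the tissue types in study 2, so their shares cannot be told apart there. In bulk sections, fewer cells of a type and less RNA per cell cannot be told apart either.

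Several genes are read by more than 1 probe set, and these did not always agree. Of 43 other probe sets of 19 genes tested in study 2, 18 were higher and 4 lower in captured cells, and 24 had the sign of the chosen probe set. These were 28, 3 and 34 without the array that stands apart. Rpl22, whose protein is known for its part in lymphocyte development, was higher on its chosen probe set, by 0.92 in study 2 and 0.79 in study 1. Its other probe set was lower, by -0.73 and -0.64. Rps9 was lower on its chosen probe set in study 2 and higher on 2 dimmer ones, by 0.58 and 0.36. Rps10 was higher on its chosen probe set, by 0.56, and lower on 1 other, by -0.74. The other probe set of Rps4x, at a mean of 4.63, was higher by 1.499 in study 2 and 0.42 in study 1, while the chosen one was lower without the array that stands apart. Rpl13a, lower on its chosen probe set in study 1 without that array, was higher on 2 others, by 0.75 and 1.11. The differences of Rpl22, Rps9, Rps10, Rps4x and Rpl13a are therefore those of a probe set. Of 94 tested probe sets with several symbols, 33 were higher and 18 lower in study 2 with a median of 0.14, and 37 were higher and 3 lower in study 1 with a median of 0.38. These counts were 60 and 19, and 57 and 5, without the array that stands apart.

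The other genes of the translation machinery give the setting. Of all genes tested, 34.4% were higher and 35.4% lower in study 2, and 31.5% and 29% in study 1. Without the array that stands apart these shares were 38.6% and 35.9%, and 35.9% and 31.7%. The mitochondrial ribosomal proteins, which build a separate ribosome, were higher in 45 and lower in 11 of 74 in study 2, with a median difference of 0.45, and higher in 53 and lower in 2 in study 1, with a median of 0.73. These counts were 48 and 10, and 60 and 2, without the array that stands apart. Mrpl47 was the largest change, at 3.12 ± 0.16 in study 2. Among 46 genes of ribosome assembly, 17 were higher and 12 lower in study 2, and 25 higher and 2 lower in study 1, and without that array 22 and 13, and 29 and 2. Of 6 elongation factors, none was higher with all arrays, and 3 and 2 were lower in study 2 and study 1. Without that array Eef1d, of the complex that recharges Eef1a1 with GTP, and Eef1e1, of the tRNA synthetase complex, were higher in study 1, by 0.53 and 0.51 (limma adjusted p = 0.000462 and 0.00765). Eef2, which moves the ribosome along the mRNA, differed by -1.10 ± 0.18 in study 2 and -0.67 ± 0.26 in study 1 (limma adjusted p = 0.0226), and Eef1a1, which delivers the tRNAs, by -0.91 ± 0.17 in study 2, or -0.60 ± 0.06 without the array that stands apart. In study 1 Eef1a1 differed by -0.18 ± 0.25 (limma adjusted p = 0.537). Of 13 other mRNAs known for a pyrimidine tract, 4 were higher and 3 lower in study 2 (7 and 2 without that array), and 6 higher and 0 lower in study 1 (6 and 1 without it). Of 5 tested ribosomal protein genes whose symbols fall outside the rule, Rpl7l1 differed by 0.72 ± 0.10, Rpl22l1 by 0.32 ± 0.10, Rpsa by 0.28 ± 0.07, Rps3a1 by -0.13 ± 0.05 and Fau by -0.26 ± 0.12 in study 2 without the array that stands apart, and all but Fau passed the test. With all arrays only Rpl7l1, at 0.77 ± 0.10, and Fau, at -0.46 ± 0.20 (limma adjusted p = 0.0381), passed. In study 1 without that array the differences were 0.43 ± 0.14 for Rpl7l1, -0.07 ± 0.15 for Rpl22l1, 0.12 ± 0.10 for Rpsa, -0.40 ± 0.07 for Rps3a1 and 0.90 ± 0.17 for Fau, of which Rpl7l1, Rps3a1 and Fau passed. With all arrays Rpl7l1 and Fau passed. No set test was run, so nothing is said of these lists beyond their counts.

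The tissue difference of 5 genes differed between the studies, all in 1 direction. The interaction, study 2 minus study 1, was taken over days 7, 17 and 33, with day 105 of study 2 set against day 104 of study 1. That day of study 1 holds 1 specimen a tissue type. The interaction was -1.28 ± 0.31 for Rps9, -0.73 ± 0.26 for Rps19, -0.71 ± 0.24 for Rps25, -0.69 ± 0.21 for Rps26 and -0.49 ± 0.14 for Rpl41. Of all genes 22.8% had a higher and 22% a lower interaction. None of the 41 had a higher one at the adjusted threshold in limma, and 3 did at an unadjusted p under 0.05. Without the array that stands apart, 7 were higher and 13 lower, against 27% and 26.1% of all genes. Of the higher ones, Rps10 had the largest, at 0.80 ± 0.23, and Rpl10a the lowest p, at 0.68 ± 0.11. Rpl10a differed between tissues by 0.75 ± 0.06 in study 2 and by 0.07 ± 0.09 in study 1. Rpl41, which encodes the shortest protein of the ribosome, differed by 0.06 ± 0.08 in study 2 and 0.54 ± 0.11 in study 1 with all arrays. Study and anything that was done differently between the cohorts cannot be told apart.

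Days after pristane were compared within each tissue type on deposited values. In captured cells of study 2 only Rps20 differed over the 5 days with all arrays, against 15.2% of all genes. Its captured specimens without the array that stands apart lay between 13.57 and 13.87 on all days, and the specimen that holds it lay at 9.47, so this call rests on that array. Without it, Rplp0, Rps9, Rpl8 and Rps4l differed over days, against 15.4% of all genes. Rplp0 had 11.82, 12.52 and 12.92 on day 7 and 12.15, 12.61 and 12.42 on day 17. It had 13.43, 13.44 and 13.27 on day 33, 13.33, 12.94 and 13.31 on day 49, and 13.21, 13.36 and 13.10 on day 105. The specimens of days 33, 49 and 105 all lay above those of days 7 and 17. On day 105 Rplp0 was higher than on day 7 by 0.80 ± 0.21 (limma adjusted p = 0.00908). Rps9 averaged 11.12 ± 0.79 on day 7, 11.07 ± 0.28 on day 17, 11.84 ± 0.12 on day 33, 11.90 ± 0.22 on day 49 and 12.17 ± 0.12 on day 105 (SD, n = 3 a day), a rise of 1.06 ± 0.28 on day 105 over day 7. Rps3 was higher by 0.43 ± 0.14. Without that array, these 3 were higher and Rps4l lower on day 105, against 7.65% and 3.6% of all genes. With all arrays 0 were higher and 1 lower, against 4.45% and 2.37%, and limma counted 2 higher at an unadjusted p under 0.05. The RNA quality difference moved with these days. Its median was 4.64, 4.58, 4.59, 3.90 and 3.45 on days 7, 17, 33, 49 and 105, and its part in the change was not tested beyond the covariate, with which 1 gene passed the test, against 9.45% of all genes. Of 8 macrophage markers, 5 also differed over these days.

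Rps4l had the lowest p over days of these genes in whole granuloma of study 2 (limma adjusted p = 7.01e-05). In captured cells it missed the threshold with all arrays (limma adjusted p = 0.0551) and passed it without the array that stands apart (limma adjusted p = 0.0495). In captured cells, without the array that stands apart, it had 4.18, 4.23 and 4.65 on day 7, 3.55, 3.55 and 3.54 on day 17, 3.65, 3.77 and 3.64 on day 33, 3.67, 4.12 and 3.58 on day 49 and 3.24, 3.26 and 3.09 on day 105. The specimens of day 105 lay below those of day 7 without overlap, by -1.16 ± 0.31 with all arrays (limma adjusted p = 0.0183). This call was lost when code 2 or 3 of day 105 or code 3 of day 7 was left out (limma adjusted p = 0.0523, 0.0677 and 0.0673), and with the RNA quality covariate without the array that stands apart (limma adjusted p = 0.0937). In whole granuloma Rps4l had 6.34, 8.16 and 7.45 on day 7, 6.01, 6.49 and 6.74 on day 17, 5.73, 5.42 and 6.12 on day 33, 7.13, 7.34 and 5.80 on day 49 and 5.26, 5.44 and 5.03 on day 105. The decline was not steady, since 2 specimens of day 49 lay above all those of day 17. Only the values 8.16, 7.45 and 7.34 lay above their array medians, and they alone let Rps4l into the test. Its call over days in whole granuloma thus uses the values that admitted it. The difference of day 105 from day 7 was -2.07 ± 0.31 (limma adjusted p = 1.38e-05), against 12.9% of all genes called lower.

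In whole granuloma of study 2, 3 genes differed over days, Rps4l, Rpl22 and Rps6, against 24.4% of all genes. Without the array that stands apart 10 did, against 35.7%, although no whole array was left out, because the spread is shared by all groups. Rps6, the substrate of the S6 kinases, had 10.29, 11.19 and 11.32 on day 105 and 9.51, 9.34 and 9.93 on day 7. It was higher on day 105 by 1.34 ± 0.38 (limma adjusted p = 0.00958), against 6.05% of all genes, and not when code 2 or 3 of day 105 or code 2 of day 7 was left out. In captured cells it had 9.09, 9.25 and 9.26 on day 105 and 8.07, 9.13 and 8.89 on day 7, and did not pass the test. Rpl22 was low in whole granuloma on day 33, at 11.46, 11.82 and 11.39, against 13.05, 13.00 and 13.35 on day 7. Its captured specimens stayed between 12.56 and 12.86 on all days without the array that stands apart. Its tissue difference was the only one that differed over days with all arrays (limma adjusted p = 0.0387), against 7.37% of all genes, and 7 genes did so without that array, against 14%. The quantile-normalized difference of Rpl22, captured minus whole, was 2.18 ± 0.37 on day 33 and 0.47 ± 0.37 on day 7. All 7 smooth muscle, 4 of 6 adipocyte and 3 of 4 mesothelium markers also differed over days in whole granuloma with all arrays. So did 4 of 9 plasma cell, 3 of 8 macrophage and 2 of 6 neutrophil markers, against 24.4% of all genes. The part of these cell types in the changes was not tested.

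**Figure D5:**
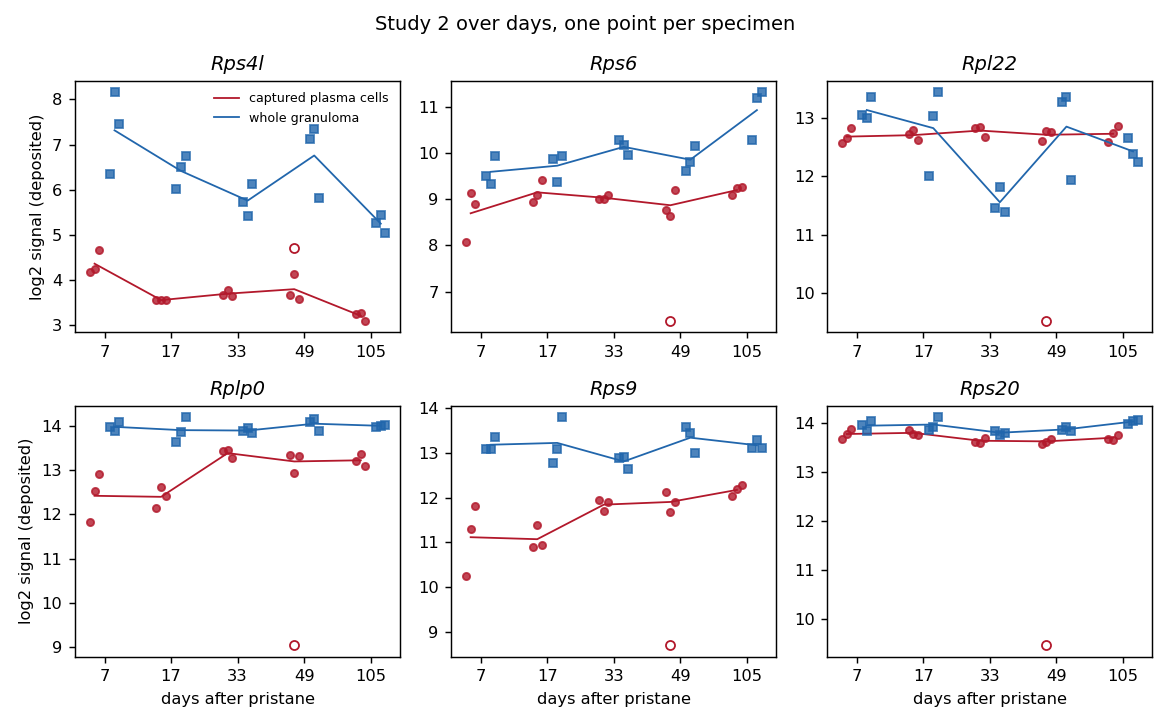
Deposited log2 signal of 6 ribosomal protein genes in each specimen of study 2 by day after pristane, with captured plasma cells in red, whole granuloma in blue and lines through the means without the array that stands apart. The open circle is the day 49 specimen with that array included; Rps4l is lower on day 105 than on day 7 in both tissue types, and Rplp0 is higher from day 33 on in captured cells.

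In study 1 no ribosomal protein gene differed over days in the fit of specimen averages. In captured cells limma called 0 of 41 at the adjusted threshold and 1 at an unadjusted p under 0.05, against 0.594% of all genes. A fit of the 25 captured arrays alone, unaveraged and with the date in their titles as a random block, called 4, Rpl12, Rpl14, Rpl37a and Rps25, against 22.8% of all genes. It counts repeat arrays of 1 specimen as replicates. In whole granuloma the fit of averages called 0 and 0, against 0.0349% of all genes. Between day 104 and day 7 in captured cells it called 0 and 0, against 0.535% of all genes higher and 0.489% lower. Day 104 of study 1 holds 1 specimen of captured cells, which is taken to vary like the other groups. Rps4l averaged 3.84 ± 0.24 in captured cells on day 7 (SD, n = 4) and lay at 3.35 in the specimen of day 104.

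The tissue difference was also read on each day, on quantile-normalized values. In study 2 with all arrays, 6 genes were higher and 2 lower on day 7 (19.4% and 20.3% of all genes), 8 and 2 on day 17 (20.2% and 18.9%), 14 and 0 on day 33 (24% and 20.6%), 6 and 15 on day 49 (16.7% and 25.1%) and 7 and 1 on day 105 (14.6% and 12.4%). Without the array that stands apart, the counts were 16 and 7 (25% and 24.9%), 17 and 7 (25.7% and 23.7%), 27 and 2 (29% and 24.6%), 17 and 4 (22.4% and 19.1%) and 14 and 5 (20.7% and 16.7%). Only on day 49 did that array turn the larger count from higher to lower. In study 1 with all arrays, 12 were higher and 0 lower on day 7 (19.4% and 19.2%), 7 and 1 on day 17 (14.8% and 15.1%) and 13 and 0 on day 33 (18.4% and 17.1%). Without that array they were 23 and 2 (25.5% and 23%), 13 and 4 (20.6% and 18.9%) and 21 and 4 (24.5% and 21.4%). For the days with 0 lower, limma counted 1 lower at an unadjusted p under 0.05 on day 33 of study 2 and 0 on days 7 and 33 of study 1. Day 104 holds 1 specimen a tissue type and is not compared by itself here, although it enters the tissue difference of study 1. Rps27l was higher on each of the 5 days of study 2 without that array, by 1.17 to 2.202.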

How the data were processed

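Gene expression was measured on 82 Affymetrix arrays of 22690 probe sets, 64 of them controls. Per the submitters' processing notes, the deposited log2 values were made with RMA and Partek, for which the sources used here give neither versions nor background settings. Array medians differed between the groups, so the deposited values were also quantile-normalized and, as an alternative, centred on each array's median. Probe sets were named from the platform annotation, of which 20380 carry 1 symbol, 691 several and 1555 none, and 20351 were matched to current symbols by gene identifier. The probe set with the highest mean stood for a gene.

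Arrays of 1 specimen code were averaged. All 53 averages entered 1 limma 3.58.1 fit (R 4.3.3, statmod 1.5.0) with the 19 groups and the code as a random block, whose correlation was 0.112 on quantile-normalized and 0.121 on deposited values. Captured and whole averages share day and code in their titles, and letters after the code can differ, so a code was taken as 1 specimen with no label that says so. Tissue comparisons and their interaction with study used quantile-normalized values, and comparisons over days used deposited values. P-values were adjusted by Benjamini-Hochberg over all 8592 genes tested, with a threshold of 0.05. The fit was tested on simulated data. The number of specimens limits the precision.

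The members and gene lists were chosen with earlier results of these data known. Named genes are, per comparison, the 5 largest changes each way past the threshold, the called genes over days, the stalk genes, genes whose symbol ends in l or x with their relatives, the 5 highest and lowest by level, and genes with a probe set called the opposite way. Rpl10a, Rps10 in the interaction, Rps2 in study 1 and those named only without the array that stands apart were named after their values were seen. The alternatives tried were the scaling, no filter, the second probe set of a gene, no block and a fixed block, all 82 arrays unaveraged, RNA quality as a covariate, specimens left out in turn, and the arrays of study 2 below a correlation of 0.9 left out. Probe sets with several symbols were left out of the gene fit. Marker and pathway lists also covered neutrophil, T and NK cell, endothelium and pancreatic acinar genes, initiation factors and Myc and mTOR regulators.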

Additional observations from a re-analysis of the deposited data

Results flagged for a closer look

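The median of the ribosomal protein genes on an array lay far from the others of its group in 4 groups of captured cells, at 11.61 on day 33 and 12.64 on day 46 of study 1, and at 13.26 on day 33 and 6.30 on day 49 of study 2. The array at 6.30 is the one that stands apart in all its genes. Among named genes, a specimen of captured cells of study 1 lay far from the others of its day for Rpl37 on day 17, at 7.71, and for Rps6 on day 17, at 7.74. On day 7 this held for Rps19 at 11.78, Rps26 at 11.81 and Rps27l at 11.25. These are 9 of 50 groups tested, by Dixon's test, whose critical values mark about 1 in 20 groups by chance.

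The tissue difference differed between the studies, study 2 minus study 1, for Rps9 at -1.28, Rps19 at -0.73, Rps25 at -0.71, Rps26 at -0.69 and Rpl41 at -0.49. In study 2 it differed over days for Rpl22, whose tissue difference on deposited values spanned 2.44 between days. What lies behind these differences was not tested.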

How the results depend on the processing

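Of 41 ribosomal protein genes, 14 were higher and 8 lower in captured cells of study 2 and 19 and 1 in study 1; the interaction with study called 0 higher and 5 lower. On values as deposited these counts were 0 and 29, 14 and 1, and 0 and 20. Median-centred they were 38 and 1, 35 and 0, and 6 and 1. With RNA quality as a covariate and the array of day 49 included, whose RNA quality value is extreme, they were 5 and 23, 9 and 13, and 0 and 16. The second probe set of a gene gave 2 lower in study 1 and an interaction higher for 1. Without the array of day 49 they were 27 and 9, 22 and 5, and 7 and 13, and without both arrays of study 2 below a correlation of 0.9 27 higher in study 2, 5 lower in study 1, and 8 and 12 for the interaction. Without the array of day 49 and with RNA quality they were 7 and 0, 19 and 2, and 6 higher for the interaction, on deposited values 1 and 29, 2 lower in study 1, and 35 lower for the interaction, and median-centred 40 and 1, 40 and 0, and 21 and 2. Differences over days in captured cells of study 2 were called for 1 gene, and for 2 with all 82 arrays, 3 when quantile-normalized, 0 with no filter on low values or with the second probe set, 4 without the array of day 49 and 4 without both arrays. In whole granuloma of study 2 they were called for 3, and for 1 with all 82 arrays or the second probe set, 10 without the array of day 49, 12 without both arrays and 7 with RNA quality added. In captured cells of study 1, 0 were called, and 4 on the 25 captured arrays alone, unaveraged, with the title date as a block. Day 105 against day 7 called 0 higher and 1 lower in captured cells; 2 were higher with RNA quality, 1 with the second probe set, 2 without both arrays and 3 without the array of day 49, and 0 lower with RNA quality added. In whole granuloma it called 1 and 1, with 0 higher on all 82 arrays, 2 higher with no filter, median-centred or quantile-normalized, and 2 and 2 without the array of day 49, without both arrays or with RNA quality added. A tissue difference that differs over days was called for 1 gene, for 0 with all 82 arrays, no filter, no replicate block, median-centring or the second probe set, 7 without the array of day 49, 8 without both arrays and 6 with RNA quality added. With no replicate block 13 were higher and 8 lower in study 2 and 18 and 1 in study 1, and as a fixed replicate block in study 2 alone 11 and 7, within 1.5 times. Deviations of the 19 code pairs correlated at -0.20 to 0.70 (median 0.17, 12 above 0.1), so the codes need not pair the samples. The counts of this section stand without the share of all genes. They show how the calls moved with the processing and are not read as a trait of these genes. On deposited values of study 2 with all arrays, for example, 96.3% of all genes were lower. The cause of these changes was not tested.

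Leaving out each of the 33 specimen codes gave 12 to 27 higher and 7 to 10 lower in study 2, 17 to 22 and 1 to 5 in study 1, and 0 to 6 and 4 to 12 for the interaction. Differences over days ranged from 0 to 32 in captured cells and from 1 to 5 in whole granuloma of study 2, and stayed at 0 in study 1. Day 105 against day 7 ranged from 0 to 3 and 0 to 1 in captured cells and from 0 to 2 and 1 to 2 in whole granuloma, day 104 against day 7 in study 1 stayed at 0, and the tissue difference over days ranged from 0 to 25. The 32 arises without code 3 and 29 without code 1 of day 49 of study 2. Without the only specimen of day 104 that comparison gives no value.

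Sign changes of a part of the genes are given as the log2 difference, captured minus whole. In study 2, median-centring gave 0.16 for Rps9, 0.35 for Rps19, 0.58 for Rplp0, 0.74 for Rps2, 1.17 for Rplp2 and 1.02 for Rps4x, and without the array of day 49 0.36, 0.55, 0.84, 0.97, 1.40 and 1.31. In study 1 it gave 0.62 for Rplp0 and 0.61 for Rps4x with and without that array, and the interaction of Rpl41 was 0.035 and 0.034. Deposited values of study 2 gave -0.43 for Rpl12, -0.33 for Rpl37, -0.37 for Rpl14, -0.054 for Rpl22 and -0.32 for Rps10, and without that array -0.47, -0.33 and -0.28 for Rpl12, Rpl37 and Rpl14 and -0.049 for Rps10. The second probe set gave 0.58 for Rps9, 1.499 for Rps4x and -0.73 for Rpl22 in study 2, and 0.42 for Rps4x and -0.64 for Rpl22 in study 1. With RNA quality and all arrays, Rpl22 was -0.10 and Rps10 -1.70 in study 2 and Rplp2 -0.18 in study 1. With RNA quality and without that array, Rps19 was 0.25, Rplp2 0.032 and Rps4x 0.22 in study 2 and Rplp0 0.082 in study 1. Rplp2 in study 2 was 0.037 without that array and 0.0503 without both arrays, and ranged from -0.26 to 0.062 when specimens were left out in turn.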
